A study of Homo sapiens with 12 samples.

Results

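The 2 strands of the miR-21 hairpin, hsa-miR-21-5p and hsa-miR-21-3p (below miR-21-5p and miR-21-3p), were followed across cells that carry different forms of DICER. They were taken by name from the deposited count tables, 2 of 1346 miRNA entries, and their 5p and 3p counts were used as given. Small RNA had been sequenced in 12 libraries of HCT116, an established human colorectal carcinoma line, by AQ-seq, a small-RNA protocol designed to lower ligation bias. Each library came from cells labelled as rescued with a DICER, and 2 libraries stood for each of R821E, in which the arginine named in the label is replaced by glutamate, E5, A5, ΔPAZ helix, named for the loss of a helix in the PAZ domain, R821A, with alanine at the same arginine, and wild type (WT). No source used here says what E5 and A5 stand for, whether or how the cells' own DICER was removed, or whether a group was a single clone. All 6 groups share the HCT116 background and the rescue. Whether partner libraries are separate cultures is not stated, and p-values therefore reflect only how far these libraries spread, which may be technical.

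A miRNA gene is transcribed as a long hairpin transcript that DROSHA trims to a precursor, and DICER then removes the terminal loop. The cut by DICER sets the 3′ end of the 5p strand and the 5′ end of the 3p strand, and an Argonaute protein keeps mainly a single strand of the resulting duplex. miR-21-5p, the guide strand, is an abundant oncogenic miRNA of many carcinomas, colorectal carcinoma among them, and represses the tumour suppressor PDCD4. miR-21-3p is the strand that is mostly discarded.

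The mature guide strand is shown with its seed, bases 2 to 8, in capitals, because the seed sets which transcripts a miRNA pairs with. Below it stands miR-590-5p, the other entry of the RefSeq table (build GRCh38.p14) with this seed, which serves as a comparison in the results. In the last line the MIR21 hairpin carries miR-21-5p in capitals, to show where the guide lies relative to the loop that DICER removes.
miR-21-5p: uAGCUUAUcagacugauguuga
miR-590-5p: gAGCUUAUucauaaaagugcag
MIR21 hairpin: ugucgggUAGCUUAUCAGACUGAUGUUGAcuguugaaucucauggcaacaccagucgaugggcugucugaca
The hairpin of 72 bases lies at chr17:59841266-59841337 on the plus strand and miR-21-5p at chr17:59841273-59841294. GENCODE 29, on the same genome build, places MIR21 inside VMP1, a gene for a membrane protein of autophagy, in an exon of a transcript with a retained intron. miR-590-5p lies at chr7:74191213-74191234 on the plus strand. From end to end 8 of 22 positions are equal, a count that includes the seed, so outside the seed the strands differ widely. RNAfold predicted 32 base pairs in the MIR21 hairpin and left 3 bases of miR-21-5p unpaired, 19 of 22 being paired.

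Depth was 144067 to 255296 miRNA counts a library, beside 9529 to 14969 counts of 30 spike-in sequences, RNAs of known sequence added as a reference. In every group the partner libraries differed by more than sampling noise, with a chi-square per degree of freedom of 3.83 to 25.6, the highest in WT. Because results against WT rest on these libraries, they are given below also without each of them where that changes the call or direction. As a check of the cell type, miR-200a-3p and miR-200b-3p, miRNAs of epithelia, averaged 660 and 1096 counts per 1000000 miRNA counts (CPM), while their relatives miR-200c-3p and miR-141-3p averaged 35.8 and 28.6 CPM and the intestinal miR-215-5p 1.83 CPM. Of the leukocyte miRNAs, miR-142-3p had 763 counts over all 12 libraries (286 CPM on average), miR-142-5p 99, miR-150-5p 14 and miR-223-3p 9.

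miR-21-5p was the most abundant entry in every library, and its share was highest with R821E. It took 58.0% and 54.0% of miRNA counts in the R821E libraries (95% exact binomial intervals 57.8% to 58.2% and 53.7% to 54.3%, which cover counting error alone, as PCR copies carry no molecular identifier), against 37.7% and 43.2% in the WT libraries. The R821E libraries lay above all 10 others, whose shares ran from 37.7% to 47.2%. E5 libraries stood at 47.2% and 42.6%, A5 libraries at 45.1% and 43.6%, ΔPAZ helix libraries at 46.1% and 43.1%, and R821A libraries at 38.5% and 43.6%. By mean the order was R821E (56.0% ± 2.84, SD, n = 2), E5 (44.9% ± 3.22), ΔPAZ helix (44.6% ± 2.16), A5 (44.4% ± 1.03), R821A (41.1% ± 3.57) and WT (40.4% ± 3.89). Below R821E, neighbours in this order overlapped or, for A5 and R821A, were closer than the spread within R821A. Over all ways to divide the 12 libraries into pairs, 10395 in number, the exact permutation test for a difference among groups gave p = 0.0407 for this share (one-sided for a large F statistic), and 0.203 after Benjamini-Hochberg adjustment over the 5 quantities tested in this way.

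**Figure D1:**
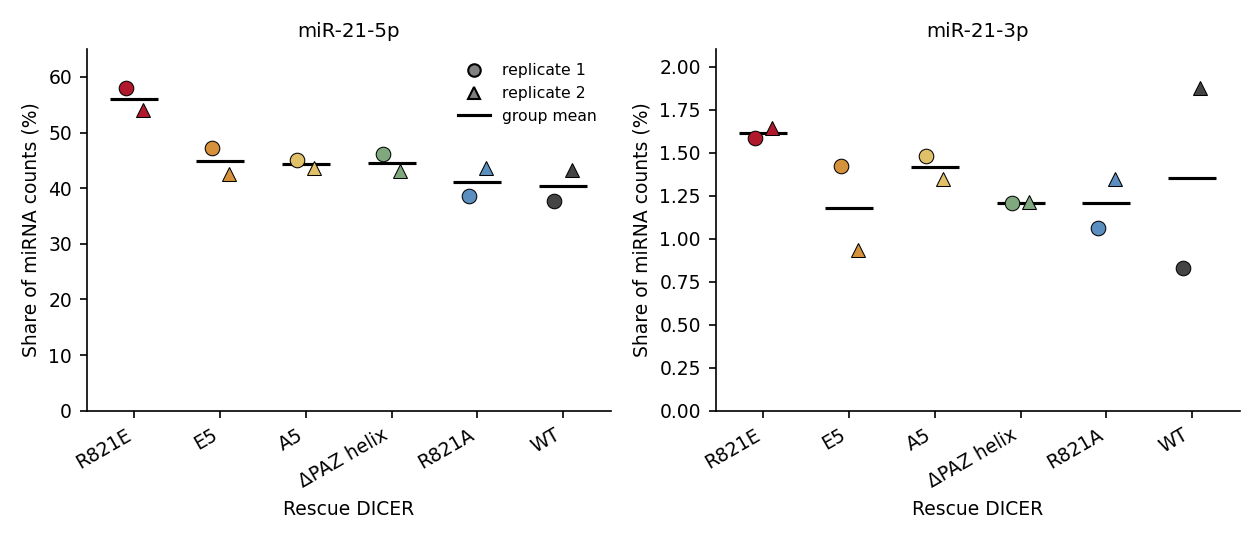
Share of miRNA counts taken by miR-21-5p (left) and miR-21-3p (right), in percent, for each rescue DICER. Circles and triangles are replicates 1 and 2 and bars are group means; the R821E libraries stand at 58.0% and 54.0% for miR-21-5p, above all others, while for miR-21-3p the WT libraries stand at 0.827% and 1.88%, the lowest and the highest of the 12.

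The second most abundant entry was miR-222-3p in every library, a miRNA known to target CDKN1B, which restrains cell division. miR-21-5p outnumbered it 22.5 and 19.4 times in the R821E libraries, against 4.58 and 6.55 times in WT. Both R821E values lay above those of the other 10 libraries, which ran from 4.21 to 10.6. Relative to the spike-ins, miR-222-3p itself was lower in R821E than in WT (log2 fold change -2.21; edgeR, adjusted p = 3.43e-08). The median over all tested entries was -1.38 on that scale. The larger ratio is therefore no measure of a gain of miR-21-5p. Of all counts named 5p, miR-21-5p held 70.2% and 67.3% in R821E and 55.5% and 61.8% in WT.

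Relative to the other miRNAs, miR-21-5p rose in R821E. On the TMM scale, which sets each entry against the bulk of the others, the log2 fold change against WT was 1.01 ± 0.159 (SE, 95% interval 0.67 to 1.36; edgeR quasi-likelihood test, adjusted p = 2.61e-04), a fold of 2.02, while relative to the spike-ins it did not pass (-0.29). Both R821E libraries lay above both WT libraries. miR-21-3p had a log2 fold change of 0.78 ± 0.376 (interval -0.079 to 1.64; edgeR, adjusted p = 0.120) and did not pass. So 1 of the 2 strands was called, in a comparison in which 47.9% of 374 tested entries were called, 23.8% higher and 24.1% lower. The rise of miR-21-5p held without either WT library and without either R821E library, between 0.90 and 1.22, and was 0.47 with total counts as the scale, where the median entry had a log2 fold change of -0.65. It lay at rank 69 from the top among 374 entries and at rank 29 among 174 entries named 5p, whose median was 0.17.

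Relative to the spike-in sequences, miR-21-5p was not shown to differ between R821E and WT. R821E libraries held 8.89 and 7.22 counts of miR-21-5p per spike-in count, against 8.45 and 11.2 in WT, and the groups overlapped. The log2 fold change was -0.29 ± 0.197 (SE; edgeR with the spike-in sums as library sizes, adjusted p = 0.224), with a 95% interval of -0.71 to 0.14. Here 60.7% of the 374 entries were called, 60.4% lower, and the median log2 fold change was -1.38, outside the interval of miR-21-5p. All miRNA counts other than the miR-21 strands came to 6.19 and 5.93 per spike-in count in R821E, against 13.8 and 14.2 in WT. On miR-21-5p the R821E and WT libraries overlapped, and on the rest of the miRNA pool they were well apart. How much spike-in went into each sample, and at which step, was not given in the sources used here.

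**Figure D2:**
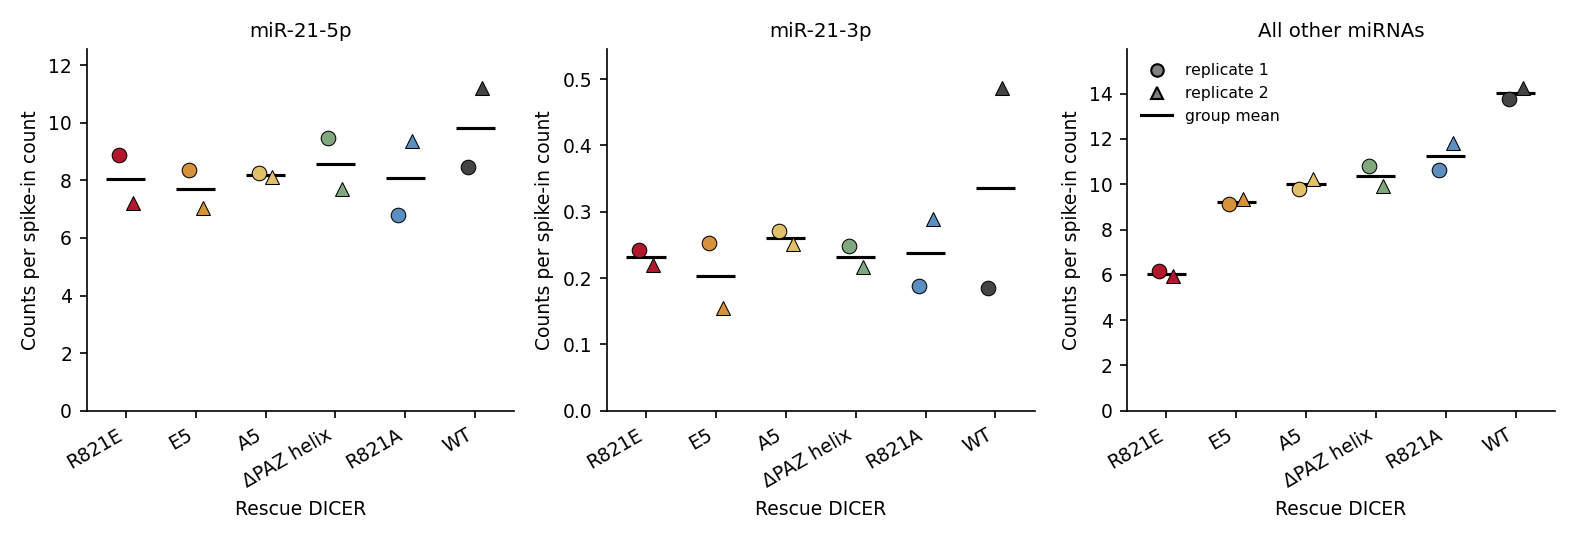
Counts per spike-in count of miR-21-5p (left), miR-21-3p (middle) and all other miRNAs together (right) for each rescue DICER; circles and triangles are replicates 1 and 2, bars are group means. R821E and WT overlap for both strands of miR-21, whereas for the other miRNAs R821E lies at 6.19 and 5.93 and WT at 13.8 and 14.2, with the other groups between them.

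In the other mutants, miR-21-5p per spike-in count stood at 8.37 and 7.04 with E5, at 8.27 and 8.13 with A5, at 9.48 and 7.69 with ΔPAZ helix, and at 6.79 and 9.36 with R821A. The 12 libraries together ran from 6.79 to 11.2, with R821A replicate 1 lowest and WT replicate 2 highest. By mean WT came first (9.83 ± 1.95, SD, n = 2), then ΔPAZ helix (8.59 ± 1.27), A5 (8.20 ± 0.0986), R821A (8.08 ± 1.82), R821E (8.05 ± 1.18) and E5 (7.70 ± 0.937), and every group overlapped its neighbour in this order, while the E5 and A5 libraries all lay below both WT libraries. An exact permutation test over the same divisions gave p = 0.693 for a difference among groups (adjusted p = 0.908).

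miR-21-3p was far rarer, and its WT libraries disagreed. It had 3631 and 2369 counts with R821E, 2554 and 2127 with E5, 2867 and 3375 with A5, 2712 and 2226 with ΔPAZ helix, 2718 and 2783 with R821A, and 2074 and 4636 with WT. As a share of miRNA counts this was 1.58% and 1.64% in R821E and 0.827% and 1.88% in WT (95% exact intervals 0.792% to 0.863% and 1.82% to 1.93%, counting error only). The WT libraries were thus the lowest and the highest of all 12, far outside each other's counting error. The share was 1.42% and 0.936% with E5, 1.48% and 1.35% with A5, 1.21% in both ΔPAZ helix libraries, and 1.06% and 1.35% with R821A. Among groups the exact permutation test gave p = 0.778 for this share (adjusted p = 0.908). Per spike-in count, miR-21-3p stood at 0.243 and 0.220 in R821E, against 0.185 and 0.487 in WT, and the 12 libraries ran from 0.155 (E5 replicate 2) to 0.487 (p = 0.883 and adjusted p = 0.908 in the exact permutation test).

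The result for miR-21-3p in R821E depended on which WT library was used. Its log2 fold change on the TMM scale was 1.57 without WT replicate 2 and 0.32 without WT replicate 1. Relative to the spike-ins it was -0.54 ± 0.391 with both (edgeR, adjusted p = 0.259, 95% interval -1.41 to 0.33). On that scale it was -1.07 without WT replicate 1 and 0.32 without WT replicate 2. Where 1 WT library was left, only the effect size is given. With all libraries it ranked 29 from the top among the 148 tested entries named 3p on the TMM scale, whose median was -0.58. In the R821E libraries miR-21-3p was the second most abundant 3p entry, and it made up 14.3% and 13.8% of all 3p counts. It was also second in E5 replicate 1 and A5 replicate 1, with 7.57% and 7.29%. In the WT libraries it held places 7 and 3 with 3.01% and 7.53%. All counts named 3p made up 11.1% and 11.9% of miRNA counts in R821E, against 27.5% and 24.9% in WT. The larger share in R821E is thus taken of a smaller 3p total.

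The balance of the miR-21 strands was not shown to shift with any DICER. R821E libraries had 36.6 and 32.8 miR-21-5p counts per miR-21-3p count, against 45.6 and 23.0 in WT, and all other libraries fell between the WT pair. The ratio was 33.2 and 45.5 with E5, 30.5 and 32.4 with A5, 38.2 and 35.6 with ΔPAZ helix, and 36.2 and 32.4 with R821A. Put as a share of the hairpin's own counts, miR-21-3p made up 2.66% and 2.96% in R821E and 2.15% and 4.16% in WT. The log2 ratio in R821E exceeded that in WT by 0.098 ± 0.309 (SE; limma, adjusted p = 0.828), with a 95% interval of -0.57 to 0.77, and the exact permutation test among groups gave p = 0.908 (adjusted p = 0.908). Without WT replicate 1 the shift was 0.59 toward 5p, and without WT replicate 2 it was -0.39. With 1 WT library left, the gap between the WT libraries no longer enters the spread. The SE was then 0.193 and 0.191, so these fits cannot decide whether the ratio shifts.

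The same comparison moved many other strand pairs. Among 69 pairs whose strands each averaged 20 counts or more, 38 (55.1%) changed their ratio in R821E. Of these, 28 (40.6% of the pairs) moved toward 5p and 10 (14.5%) toward 3p, and over all pairs the median log2 shift was 0.40, with quartiles of -0.34 and 1.34. miR-21 stood at rank 42 of 69 from the 5p side and at rank 64 by the size of its shift. Its neighbours in that order were miR-30e (0.24), miR-625 (0.19) and miR-151a (0.12) above it, and miR-629 (0.061), miR-34a (0.0072) and miR-183 (-0.0095) below it, and none of these 6 passed. In WT, miR-21 had the 4th highest 5p to 3p ratio of the 69 pairs. Its ratio differed between the WT libraries by 0.98 on the log2 scale, the 14th largest such gap, where the median size over the pairs was 0.46.

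**Figure D3:**
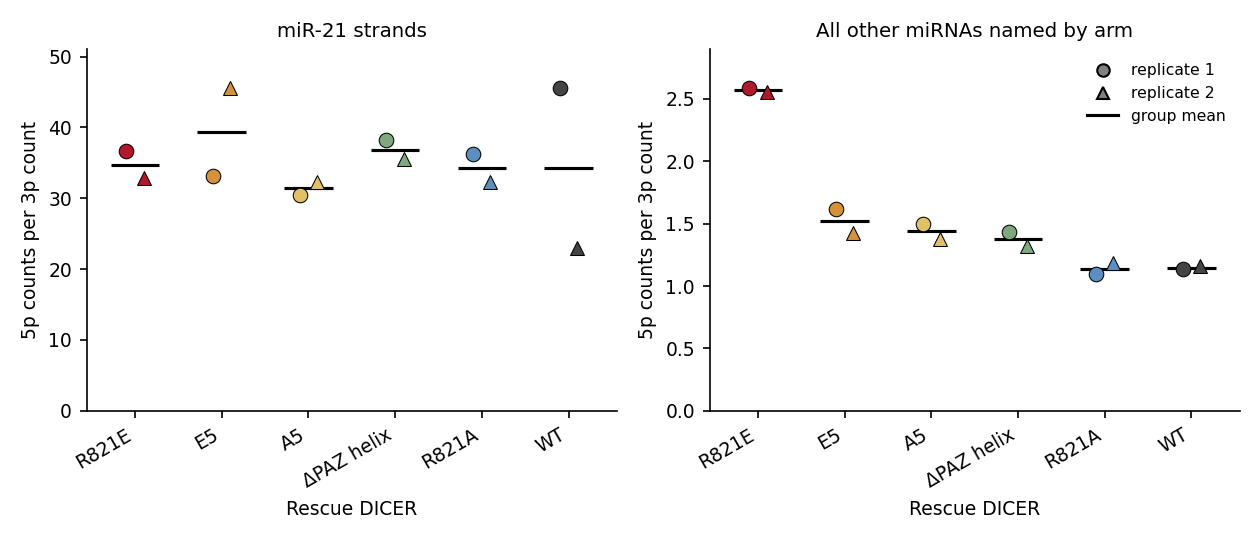
Counts of 5p per count of 3p for the miR-21 strands (left) and for all other miRNAs named by arm, summed (right), in each rescue DICER; circles and triangles are replicates 1 and 2 and bars are group means. For miR-21 the WT libraries, at 45.6 and 23.0, enclose the other libraries, whereas for the other miRNAs R821E stands apart at 2.59 and 2.55, against 1.14 and 1.16 in WT.

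miR-21-5p alone outweighed all other 5p entries together, so strand shares over the whole pool were also computed without miR-21. Leaving out both miR-21 strands, counts named 3p made up 23.5% and 23.2% of the remaining miRNA counts in R821E and 43.3% and 42.0% in WT. The ratio of 5p to 3p counts among these other miRNAs was 2.59 and 2.55 in R821E and 1.14 and 1.16 in WT. With the miR-21 strands included it was 7.45 and 6.73 in R821E, against 2.47 and 2.80 in WT. R821E libraries lay apart from WT libraries both with and without the miR-21 strands. E5, A5 and ΔPAZ helix libraries also lay above both WT libraries in both ways, though below R821E. Without the miR-21 strands they stood at 1.62 and 1.43, 1.49 and 1.38, and 1.43 and 1.32, in this order. R821A, at 1.10 and 1.18, overlapped WT.

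**Figure D4:**
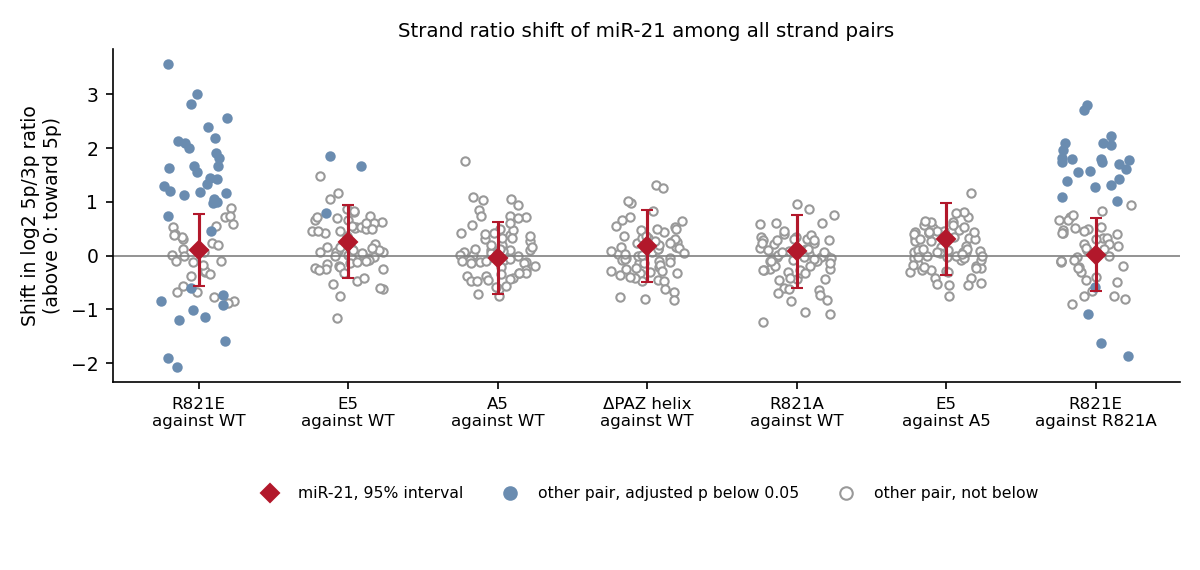
Shift in the log2 ratio of 5p to 3p counts for 69 strand pairs in each of 7 comparisons, positive toward 5p in the group named first; the red diamond is miR-21 with its 95% interval, filled points are other pairs with adjusted p below 0.05 (limma). In R821E against WT miR-21 lies at 0.098 among pairs that spread widely to both sides.

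Exchanging glutamate for alanine at the same arginine is a comparison in which WT is not the reference group. The fits share 1 estimate of spread over all 12 libraries, however. The WT libraries therefore enter the SEs and p-values below, except where only the 4 libraries compared were used. miR-21-5p took 58.0% and 54.0% of counts in R821E and 38.5% and 43.6% in R821A, and it was higher by 0.97 ± 0.159 on the TMM scale (SE, 95% interval 0.63 to 1.31; edgeR, adjusted p = 6.92e-04). miR-21-3p made up 1.58% and 1.64% in R821E and 1.06% and 1.35% in R821A. Its log2 difference of 0.94 ± 0.378 did not pass (edgeR, adjusted p = 0.0764), so 1 of 2 strands was called where 41.4% of the 374 entries were, 21.9% higher and 19.5% lower. Under other settings this strand passed, with DESeq2 and its own size factors (0.98, adjusted p = 0.0132), without the robust step of edgeR (adjusted p = 0.0396) and with only the 4 libraries compared (0.93, adjusted p = 7.88e-04). Set against the spike-ins, neither strand passed, with a log2 difference of -0.0047 ± 0.197 for miR-21-5p (interval -0.43 to 0.42; edgeR, adjusted p = 0.989) and -0.044 ± 0.390 for miR-21-3p (interval -0.91 to 0.82, adjusted p = 0.945), while 49.2% of entries were called, 48.9% lower, and the median was -1.02. The strand ratio differed by 0.019 ± 0.309 (interval -0.65 to 0.69; limma, adjusted p = 0.980), where 27 of 69 pairs (39.1%) were called, 23 of them toward 5p. The comparisons of R821E with WT and with R821A share the R821E libraries.

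In E5, A5, ΔPAZ helix and R821A, with all libraries used, neither strand of miR-21 was called against WT. On the TMM scale miR-21-5p had log2 fold changes of 0.25 in E5, 0.20 in A5, 0.25 in ΔPAZ helix and 0.045 in R821A, each ± 0.158 (SE; edgeR, adjusted p = 0.413, 0.628, 0.527 and 0.952). Their 95% intervals reached 0.58, 0.54, 0.59 and 0.38 at the upper end, so a rise as large as that of R821E lay outside each. miR-21-3p had -0.12 in E5, 0.12 in A5, -0.067 in ΔPAZ helix and -0.16 in R821A, each with an SE of 0.374 or 0.375 (edgeR, adjusted p = 0.864, 0.961, 0.936 and 0.931), and their 95% intervals were wide, for example -1.01 to 0.70 in R821A and -0.73 to 0.97 in A5. With 0 of 2 strands called in each, the share of all 374 entries called was 9.09% with E5 (2.41% higher and 6.68% lower), 0.267% with A5, 0.267% with ΔPAZ helix, and 3.21% with R821A (0.267% higher and 2.94% lower). At an unadjusted p below 0.05 neither strand was called in any of these 4 mutants.

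Relative to the spike-ins both strands had negative fold changes in these 4 mutants, none of which passed. For miR-21-5p the log2 fold change was -0.35 with E5, -0.26 with A5, -0.20 with ΔPAZ helix and -0.28 with R821A, each ± 0.197 (SE; edgeR, adjusted p = 0.192, 0.367, 0.535 and 0.414), beside medians over all entries of -0.56, -0.46, -0.45 and -0.35. For miR-21-3p it was -0.72, -0.36, -0.53 and -0.49 in the same order, with SEs of 0.390 to 0.392 (adjusted p = 0.191, 0.552, 0.386 and 0.474). Of all entries, 27.3% were called with E5, 14.7% with A5, 13.1% with ΔPAZ helix and 4.28% with R821A, all of them lower. Without WT replicate 1, in which miR-21-3p was scarce, miR-21-3p passed as lower in all 4 (-1.26 in E5, -0.90 in A5, -1.07 in ΔPAZ helix and -1.03 in R821A; edgeR, adjusted p = 0.00192, 0.0389, 0.0172 and 0.0222). Without WT replicate 2 it was 0.13, 0.49, 0.32 and 0.36, and none passed.

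Strand ratios of miR-21 in these mutants differed from WT by 0.26 in E5, -0.045 in A5, 0.19 in ΔPAZ helix and 0.079 in R821A on the log2 scale, each ± 0.309 (SE; limma, adjusted p = 0.771, 0.978, 0.838 and 0.989). Of the 69 pairs 4.35% passed in E5 (3 pairs) and 0 in the other 3, where 7, 11 and 8 pairs had an unadjusted p below 0.05 and an edgeR interaction test called 0, 1 and 2. Without WT replicate 1 the E5 shift was 0.75 toward 5p, and without WT replicate 2 it was -0.23. Between E5 and A5, miR-21-5p differed by 0.040 ± 0.158 by TMM and -0.089 ± 0.197 by spike-in, miR-21-3p by -0.23 ± 0.375 and -0.36 ± 0.390, and the ratio by 0.31 ± 0.309 (edgeR and limma, adjusted p of 0.754 or more in all 5). Between E5 and A5, edgeR called 0 of 374 entries on either scale, with 37 at an unadjusted p below 0.05 on each. limma-voom also called 0 on both scales, and DESeq2 with its own size factors called 0. Of the 69 pairs limma called 0, with 0 at an unadjusted p below 0.05, and the edgeR interaction test called 0.

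**Figure D5:**
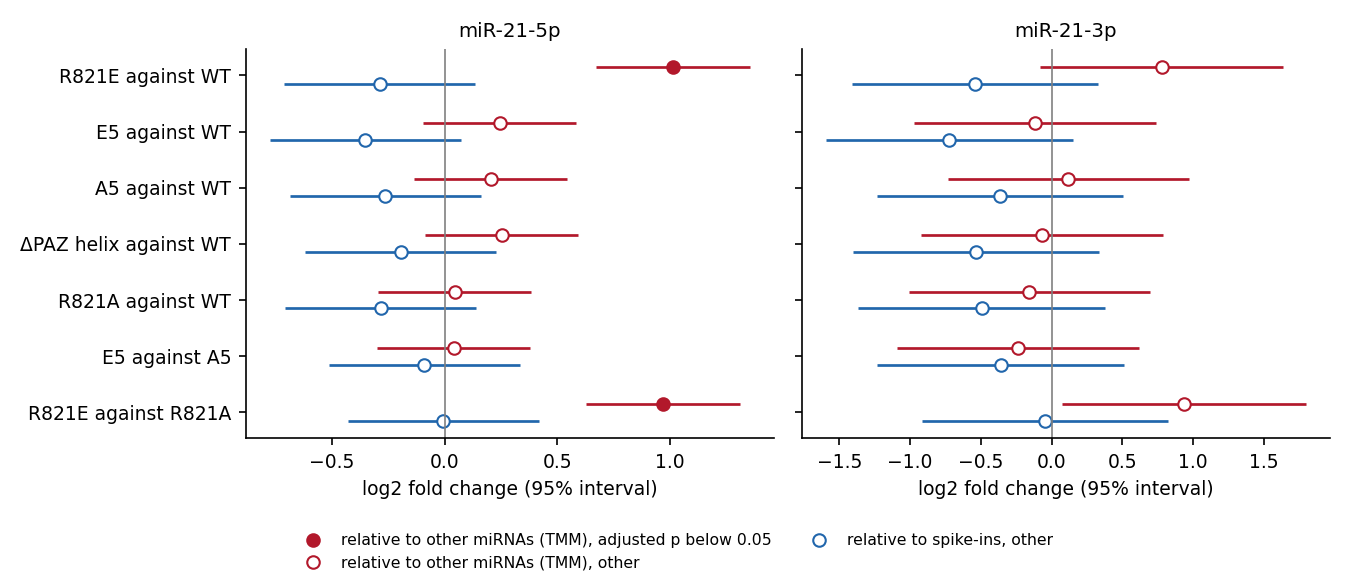
Log2 fold changes of miR-21-5p (left) and miR-21-3p (right) in 7 comparisons, relative to other miRNAs (TMM, red) and to the spike-ins (blue); lines are 95% intervals and filled points have an adjusted p below 0.05 (edgeR). Of the 28 values shown, the filled ones are miR-21-5p on the TMM scale in R821E against WT (1.01) and R821E against R821A (0.97).

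miR-590-5p, which shares the seed of miR-21-5p, comes from a different chromosome and is far rarer, had values close to those of miR-21-5p in R821E. It had 481 and 271 counts in R821E and 341 and 391 in WT, and it rose by 0.98 ± 0.184 on the TMM scale (SE; edgeR, adjusted p = 9.18e-04). Per 1000 spike-in counts this was 32.1 and 25.1 in R821E, against 30.5 and 41.0 in WT, and the log2 fold change of -0.32 ± 0.218 did not pass (edgeR, adjusted p = 0.226). The partner strand, miR-590-3p, fell by 1.79 ± 0.291 on the spike-in scale (edgeR, adjusted p = 1.19e-04). There the median was -1.38 over all entries and -1.88 over those named 3p. On the TMM scale the log2 fold change of miR-590-3p, -0.49 ± 0.265, did not pass (edgeR, adjusted p = 0.146). The miR-590 ratio shifted by 1.43 ± 0.320 toward 5p (limma, adjusted p = 0.00375). In the other mutants miR-590-5p had log2 fold changes of -0.075 to 0.25 against WT on the TMM scale, and none passed.

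The entries whose TMM-scaled log2 levels ran most closely with miR-21-5p over the 12 libraries, among 249 others with a mean of at least 100 CPM, were miR-374a-5p (Pearson r = 0.97), miR-106b-5p (0.97), miR-29a-5p (0.97), miR-590-5p (0.96) and miR-181a-3p (0.96). The R821E libraries stand apart from the rest, and over the 10 other libraries r was 0.91, 0.81, 0.80, 0.79 and 0.88 in the same order. Their log2 fold changes in R821E against WT were 0.76 to 1.28 on the TMM scale and -0.55 to -0.026 on the spike-in scale, given as a description because the entries were picked on levels that include the R821E libraries. For miR-21-3p the closest were miR-6516-3p (0.97), miR-221-5p (0.94), let-7b-3p (0.93), miR-30d-5p (0.92) and miR-96-3p (0.92), and over the 10 other libraries r was 0.93, 0.89, 0.89, 0.85 and 0.85. Their log2 fold changes, likewise a description, were 0.93 to 1.76 on the TMM scale and -0.38 to 0.44 on the spike-in scale. miR-21-5p and miR-21-3p had r = 0.84 with each other, and 0.70 over the 10 other libraries. All these values share library and scaling and describe these libraries.

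Other miRNAs often raised in colorectal carcinoma moved both ways in R821E. Of 21 such miRNAs tested, 4 rose and 9 fell on the TMM scale, with a median of -0.32 beside -0.097 over all entries, of which 23.8% were called higher and 24.1% lower. Against the spike-ins 0 rose and 18 fell, with a median of -1.61 beside -1.38 (edgeR; 19 had an unadjusted p below 0.05, and of all entries 0.267% were called higher and 60.4% lower). The falls on the TMM scale were led by miR-25-3p (-2.70), miR-221-3p (-1.60), miR-92a-3p (-1.58), miR-27a-3p (-1.52), miR-19b-3p (-1.01) and miR-29a-3p (-0.92), all 3p strands. The rises were 5p strands: miR-18a-5p (1.08 ± 0.156; edgeR, adjusted p = 1.46e-04), miR-183-5p (0.98), miR-106b-5p (0.85) and miR-20a-5p (0.60). Relative to the spike-ins, miR-20a-5p fell (-0.70) and the other 3 did not pass (-0.21, -0.31 and -0.45). Further 5p strands of the list also fell on the spike-in scale. By TMM the median was 0.17 over all entries named 5p and -0.58 over all named 3p. The split by strand on the TMM scale was therefore not particular to the list. On both scales 20 of the 21 had a lower log2 fold change than miR-21-5p, the exception being miR-18a-5p, and 18 had a lower one than miR-21-3p. Most entries outside the list also lay below the miR-21 strands. Among all 374 entries miR-21-5p ranked 69 from the top by TMM and 71 by spike-in, and miR-21-3p ranked 102 and 105. In the other mutants 0 of the 21 rose on either scale, while the number that fell was 4 with E5 and 1 each with A5, ΔPAZ helix and R821A by TMM, and 12, 11, 9 and 2 in the same order by spike-in (edgeR). Over all entries the share called lower was 6.68%, 0.267%, 0.267% and 2.94% by TMM, and 27.3%, 14.7%, 13.1% and 4.28% by spike-in.

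Marker miRNAs of other cell types were read in the same libraries. The 6 miRNAs of fibroblasts and endothelium, all detected, summed to 262 to 368 CPM in R821E and 785 to 1113 CPM in WT. The 4 leukocyte miRNAs analysed, all detected, summed to 125 to 148 CPM in R821E and 295 to 443 CPM in WT. The 8 epithelial miRNAs summed to 942 to 1076 CPM in R821E, against 2746 to 2967 CPM in WT. All 3 sums were lower in both R821E libraries while the share of miR-21-5p was higher, and their part in the result was not tested. With total counts as the scale, as in these sums, most entries were lower in R821E than in WT. The median log2 fold change was -0.65 over all entries, -0.39 over those named 5p and -1.13 over those named 3p. The sums are therefore no measure of a change in cell types.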

How the data were processed

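The authors deposited a table of raw counts per library, whole numbers per miRNA or spike-in entry with no normalization. Per the labels' protocols, RNA was isolated with TRIzol and sequenced on a NovaSeq 6000 after AQ-seq. Per the submitters' processing notes, cutadapt, BWA and bedtools were used, and hg38 and mm10 are listed as builds. No source used here gives their versions or roles, or how reads matching several miRNAs were counted.

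Comparisons set every mutant against WT, and also R821E against R821A and E5 against A5, in single fits over all 12 libraries (6 residual degrees of freedom) with Benjamini-Hochberg adjustment over all entries or pairs and a threshold of 0.05. edgeR 4.0.16 in R 4.3.3 tested the 374 entries left by filterByExpr, which hold 99.6% of miRNA counts, with TMM factors and again with the summed spike-ins as library sizes, and spike-in entries stayed out of the tests. The strand ratio, log2 of (5p + 0.5)/(3p + 0.5), was tested with limma 3.58.1 (trend, robust) over 69 pairs matched by name. Intervals of fold changes use the t distribution with each fit's degrees of freedom. DESeq2 1.42.0, limma-voom and the edgeR interaction test were alternatives. The main edgeR and limma fits and the exact permutation test were tried on simulated data, and these alternatives were not. RNAfold is from ViennaRNA 2.7.2. A count of 0 would allow up to 3 counts, 0.00118% to 0.00208% of a library. Same-numbered libraries did not deviate in a common direction over all groups, with 3 of 15 pairs of groups over a correlation of 0.1, so no replicate block was used. Single pairs of groups were strongly related in either direction: 0.559 for R821A with WT, -0.629 for E5 with WT and -0.359 for E5 with R821A. What these groups share was not tested, so independent variation of the libraries is not shown.

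The strands, lists and tests were chosen with earlier results of these data known. Named by rule were both strands, the entry with the same seed, list members called in R821E (up to 6 a direction), the 5 entries most like each strand and the 3 strand pairs on each side of miR-21.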

Additional observations from a re-analysis of the deposited data

How the results depend on the processing

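The rise of miR-21-5p in R821E passed in all 15 alternatives run against WT (0.47 to 1.22; highest adjusted p 0.00636) and in all 15 against R821A (0.45 to 1.16; highest adjusted p 0.0140), edgeR, DESeq2 and limma-voom included. On the spike-in scale it passed in 0 of 12 against WT (-0.48 to -0.070). miR-21-3p passed in R821E with the DESeq2 test, which also uses its own size factors in place of TMM, at 0.85 against WT (adjusted p = 0.0319) and 0.98 against R821A, and against R821A also without the robust step (0.94) and with only the 4 libraries compared (0.93). Signs turned, with no call, for miR-21-5p between E5 and A5 with upper quartile factors (-0.10), for miR-21-3p in ΔPAZ helix against WT with limma-voom (0.079), and for miR-21-5p between R821E and R821A without the most abundant spike-in (0.013) and with limma-voom (0.0082). With total counts as the scale, 2 colorectal miRNAs rose in R821E in place of 4. The cause of these changes was not tested.

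Leaving out single libraries gave these log2 ranges. Calls gained in such fits are not listed, because 1 library then stands for a group. miR-21-3p on the TMM scale ran from 0.32 to 1.57 in R821E, -0.62 to 0.68 in E5, -0.39 to 0.91 in A5, -0.57 to 0.74 in ΔPAZ helix and -0.66 to 0.64 in R821A against WT, and from -0.60 to 0.070 in E5 against A5. On the spike-in scale it ran from -1.07 to 0.32 in R821E, -1.26 to 0.13 in E5, -0.90 to 0.49 in A5, -1.07 to 0.32 in ΔPAZ helix and -1.03 to 0.36 in R821A against WT, and from -0.32 to 0.30 in R821E against R821A. miR-21-5p ran from -0.095 to 0.21 in R821A against WT and -0.062 to 0.15 in E5 against A5 on the TMM scale. On the spike-in scale it ran from -0.38 to 0.023 in ΔPAZ helix against WT, -0.22 to 0.030 in E5 against A5 and -0.22 to 0.25 in R821E against R821A. The strand ratio ran from -0.39 to 0.59 in R821E, -0.23 to 0.75 in E5, -0.54 to 0.45 in A5, -0.31 to 0.68 in ΔPAZ helix and -0.41 to 0.57 in R821A against WT, and from -0.062 to 0.10 in R821E against R821A.

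By the labels, same-numbered libraries share only a number. With the replicate number as a block, miR-21-5p in R821E against WT had 1.01 on the TMM scale (edgeR, adjusted p = 8.22e-04) and miR-21-3p 0.80 (adjusted p = 0.128), and no call on either strand or on the ratio changed. With 2 libraries a group and 6 residual degrees of freedom, the SE of 0.37 to 0.39 for miR-21-3p leaves moderate changes undetectable, and leaving out a library leaves its group with 1, assumed to vary like the others.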
